A study of Mus musculus with 3 samples.

Results

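The transcription factors of granulopoiesis, the making of neutrophils from marrow progenitors, were followed through single cells of the bone marrow, the blood and the tendon injury site of mice. The 9 genes were *Cebpa*, *Cebpb*, *Cebpd*, *Cebpe*, *Gfi1*, *Spi1*, *Irf8*, *Klf4* and *Myb*, chosen by name and found as the rows with those symbols. A row was found for 8 of the 9 among the 27998 features counted in every library, and *Cebpd* is not analysed here. All cells came from male C57BL/6J mice 10 weeks old, with no altered genotype named, taken on day 3 after burn/tenotomy, in which a dorsal burn is combined with cutting of the Achilles tendon. The injury site was digested with enzymes, blood was reduced to the mononucleated layer of a Ficoll gradient, and marrow came from flushed femurs. Red cells were lysed in marrow and blood, and no cells were sorted. Each tissue gave 1 library, so the site, its preparation and its library cannot be told apart, and no difference below has a replicate check. Every animal was injured, no uninjured library was compared, and how many mice contributed to each library is not stated in the sources used. A Ficoll gradient is meant to separate granulocytes from this layer, so the blood neutrophils measured were only those that came along with it.

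Neutrophils arise from progenitors shared with monocytes. C/EBPα and the Ets factor encoded by *Spi1* set up the myeloid program. *Gfi1* and *Cebpe* carry the granulocyte branch through the stages at which azurophil and then specific granules are filled, while *Irf8* and *Klf4* are known for the monocyte and dendritic branch. *Myb* keeps progenitors dividing, and *Cebpb* and *Cebpd* are the C/EBP factors associated with emergency granulopoiesis and with inflammatory transcription in mature myeloid cells.

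The libraries held 1855 to 5629 cells and 22542581 to 90621052 unique molecular identifiers (UMIs, counted transcript molecules), with a median per cell of 8316 to 22836. Between 78.1% and 86.5% of the kept cells of a library entered a group by their marker UMIs, and no member of the factor set was a marker. In marrow, progenitors (90 cells) held the azurophil genes *Elane*, *Mpo*, *Prtn3* and *Ctsg* and few UMIs of the specific granule genes, and azurophil-to-specific cells (111) held both kinds. Cycling neutrophils (263) held proliferation genes, immature neutrophils (384) held specific granule genes and no cycling program, and mature neutrophils (214) were high in *Cxcr2* and the other late markers. Neutrophils of the blood (385) and the tendon (466) were taken at all stages. Monocytes numbered 284 in marrow, 355 in blood (263 classical and 92 nonclassical) and 517 in the tendon, and 68 marrow progenitors carried monocyte markers beside the azurophil genes. Of the early markers not used for the gates, *Ms4a3* was lower at each later stage, from 1854 UMIs per 1000000 (CPM) in the progenitors to 1022 CPM in the azurophil-to-specific cells, 189 CPM in the cycling, 18.6 CPM in the immature and 1.24 CPM in the mature neutrophils. *Kit* went from 69.4 to 23.9, 8.96 and 3.23 CPM over the first 4 and was higher again, at 12.4 CPM, in the mature cells. *Cd34* was at 34.1 CPM in the progenitors and at 0.576 to 0.938 CPM in the later stages. Of the progenitors and azurophil-to-specific cells, 90% and 97.3% also passed the cycling threshold.

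A gated group is a range of marker levels, not a cell type. Within 20% of the threshold lay 33 cells against 1198 above it for the neutrophil gate in marrow, 6 against 392 in blood and 30 against 470 in the tendon. The monocyte gate was less sharp, with 140 cells near it against 410 above in marrow, 76 against 435 in blood and 635 against 1708 in the tendon. The libraries shared 2, 1 and 6 cell barcodes for marrow and blood, marrow and tendon, and blood and tendon. Median UMIs per cell ran from 48209 in the marrow progenitors over 11287 in the marrow mature neutrophils and 8561 in the blood neutrophils to 3850 in the tendon neutrophils. Levels are therefore given as CPM of the summed UMIs of a group with the exact Poisson 95% interval in parentheses. All intervals cover counting error only. A level is called higher or lower below where the log2 ratio of 2 groups was at least 1 in size and its 95% interval left out 0, for features with at least 20 UMIs in both groups together. Adjacent comparisons share a group and are not independent.

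The promoters of *Irf8*, *Klf4* and *Cebpb* are shown. *Irf8* and *Klf4* had the widest gaps between neutrophils and monocytes, and *Klf4* and *Cebpb* were the members higher in tendon than in blood neutrophils. RefSeq windows on GRCm38.p6 covered 6 of the 8 factors, and each sequence is the 250 bases before the start on the gene's strand, 5′ to 3′. All of it lies outside the exons of the same gene in GENCODE M21, and exons of other genes were not checked. Capitals in *Cebpb* (chr2:167688665-167688914, plus strand) and *Klf4* (chr4:55532476-55532725, minus strand) mark CCNCNCCC, the letters searched for KLF proteins, on either strand, with overlapping matches joined. Capitals in *Irf8* (chr8:120736108-120736357, plus strand) mark TTCNNNGAA, searched for STAT proteins, and AAATCA, searched for GFI1.
Cebpb: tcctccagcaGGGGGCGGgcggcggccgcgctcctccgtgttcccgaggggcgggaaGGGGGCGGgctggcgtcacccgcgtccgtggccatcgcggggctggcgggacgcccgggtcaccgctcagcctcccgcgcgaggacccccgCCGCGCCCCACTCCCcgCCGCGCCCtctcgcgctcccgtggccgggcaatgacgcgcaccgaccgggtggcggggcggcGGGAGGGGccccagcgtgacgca
Klf4: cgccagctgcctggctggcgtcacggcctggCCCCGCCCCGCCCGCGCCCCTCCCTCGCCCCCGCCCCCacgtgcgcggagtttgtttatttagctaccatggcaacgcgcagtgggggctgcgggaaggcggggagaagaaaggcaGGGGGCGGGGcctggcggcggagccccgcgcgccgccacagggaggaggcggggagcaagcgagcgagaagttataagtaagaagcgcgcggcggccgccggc
Irf8: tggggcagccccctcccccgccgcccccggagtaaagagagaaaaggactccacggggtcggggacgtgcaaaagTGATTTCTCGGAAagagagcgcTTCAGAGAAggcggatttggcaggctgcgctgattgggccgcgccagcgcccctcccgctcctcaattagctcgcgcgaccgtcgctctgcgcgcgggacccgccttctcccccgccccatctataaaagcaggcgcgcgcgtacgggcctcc
The *Klf4* window held 9 matches to CCNCNCCC and the *Cebpb* window 6, and 45.9% of 32851 promoter windows of the same length held at least 1. That share counts windows, not matches per window, and the *Klf4* and *Cebpb* windows were 74% and 81.6% G or C. The letters also matched in windows of *Irf8*, where they are not marked, *Myb*, *Gfi1* and *Cebpa*. In *Irf8*, a match to AAATCA on the reverse strand, 175 to 170 bases before the start, overlapped a TTCNNNGAA at 171 to 163, and a further TTCNNNGAA lay at 153 to 145. Those letters occurred in 12.4% and 7.02% of all windows. The C/EBP letters TTNCNNAA, held by 36.8% of all windows, matched only in the window of the first *Gfi1* start, at 143 to 136 bases before it. GAGGAA, searched for the *Spi1* product and held by 23.3% of all windows, was in no member's window, and AACNG, searched for MYB, was held by 74.2%. A match is a description of the letters and no evidence of binding, and the absence of a match says only that these letters are not in this window.

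**Figure D1:**
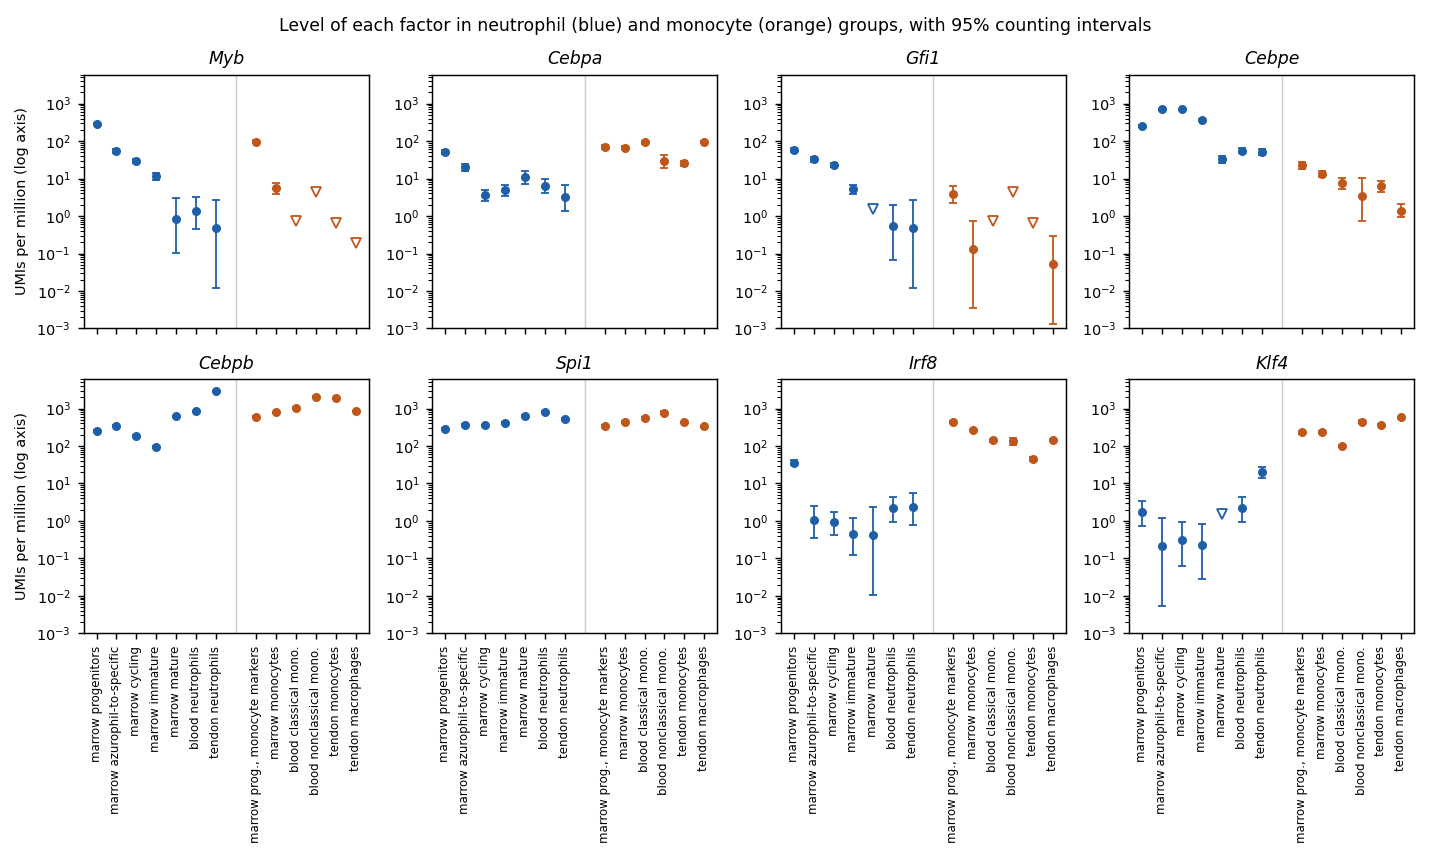
Levels of the 8 measured factors in 7 neutrophil groups and 6 monocyte groups, in CPM of the summed UMIs on a log axis, with exact Poisson 95% intervals as bars and an open triangle at the upper limit where no UMI was counted. *Myb*, *Cebpa* and *Gfi1* stand highest on the neutrophil side in the marrow progenitors, *Cebpe* in the azurophil-to-specific and cycling cells, and *Cebpb* in the tendon neutrophils.

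From the progenitors to the cycling neutrophils of the marrow, *Myb*, *Cebpa*, *Gfi1* and *Irf8* were lower and *Cebpe* was higher. That is 4 members lower and 1 higher of 7 compared, against 38.0% and 11.3% of the 9573 features compared. *Klf4* had too few UMIs to be compared, and the median over the members was -1.34 on the log2 scale against -0.59 over all features.

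*Myb* (chromosome 10, 21124935 to 21160984, minus strand), the progenitor factor, was at 294 CPM (279 to 310.5) in the progenitors, 55.0 CPM (48.5 to 62.2) in the azurophil-to-specific cells and 29.3 CPM (26.0 to 32.9) in the cycling neutrophils, a log2 ratio of -3.33 (-3.52 to -3.14) between the last and the first. The first of these steps was the larger, with -2.42 from progenitors to azurophil-to-specific cells and -0.91 from there to the cycling cells. At least 1 *Myb* UMI was found in 88 of 90 progenitors and 142 of 263 cycling cells. Most cells of all 3 groups were over the cycling threshold, so this difference lay among cells with proliferation genes.

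*Cebpa* (chromosome 7, 35119293 to 35121928, plus strand), which starts the granulocyte program and restrains division, went from 52.0 CPM (45.7 to 59.0) in the progenitors over 20 CPM (16.1 to 24.5) to 3.65 CPM (2.54 to 5.07) in the cycling neutrophils. The log2 ratio of cycling neutrophils to progenitors was -3.83 (-4.39 to -3.32). Of the members in the neutrophil groups it was a scarce transcript once the cells had left the progenitor group, with 35 UMIs in 263 cycling cells.

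*Gfi1* (chromosome 5, 107716657 to 107726036, minus strand), a repressor of the monocyte program, stood at 58.5 CPM (51.7 to 65.8), 32.4 CPM (27.4 to 38.0) and 23.1 CPM (20.2 to 26.4) in the same 3 groups. Its log2 ratio of cycling neutrophils to progenitors was -1.34 (-1.60 to -1.08), a shallower slope than that of *Cebpa* or *Myb*, whose intervals did not reach it. Without the most abundant genes in the total the ratio became -0.49, so that this difference passed 2-fold only on some scalings.

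*Cebpe* (chromosome 14, 54710360 to 54712174, minus strand), needed for specific granules, ran the other way. It was at 260.0 CPM (246 to 275) in the progenitors, 712 CPM (688 to 737) in the azurophil-to-specific cells and 717 CPM (700.4 to 734) in the cycling neutrophils. In CPM of all UMIs, the level was reached at the first step, with a log2 ratio of 1.45 (1.36 to 1.55). The second step was flat on this scaling, at 0.01 (-0.05 to 0.07). From progenitors to cycling cells the ratio was 1.46 (1.38 to 1.55), and it ran from 1.29 to 2.31 under the other settings. The single steps are not given on other scalings, so the flat second step is stated for this scaling only. All 111 azurophil-to-specific cells and all 263 cycling cells held a *Cebpe* UMI, against 84 of 90 progenitors. After thinning of each cell to 1000 UMIs, 27.8% (18.9 to 38.2) of progenitors and 51.4% (41.7 to 61.0) of azurophil-to-specific cells had a UMI, and 0 of 588 blood T cells did, which allows up to 0.510%. Median depths before thinning were 48209, 41509 and 8917 UMIs. Single azurophil-to-specific cells ranged from 430.3 CPM at the 10th percentile to 936 CPM at the 90th.

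*Spi1* (chromosome 2, 91082390 to 91115756, plus strand), the Ets factor of all myeloid cells, stayed under 2-fold, from 283 CPM (268 to 299) in the progenitors to 359 CPM (347 to 371) in the cycling cells. The log2 ratio was 0.34 (0.25 to 0.44), and it reached 1.19, past 2-fold, when the most abundant genes were left out of the total, which moved the median of all features by 0.85. *Cebpb* (chromosome 2, 167688915 to 167690418, plus strand) was at 252 CPM (238 to 267) and 186 CPM (177 to 194), a log2 ratio of -0.44 (-0.55 to -0.34) that turned to 0.41 when the most abundant genes were left out of the total, so its direction at this step depends on the scaling.

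Among the progenitors, the cells that also carried monocyte markers had 3 of 8 members higher and 3 lower than the others, against 12.4% and 4.1% of 9483 features. *Irf8*, *Klf4* and *Cebpb* were higher in the cells with monocyte markers, and *Cebpe*, *Gfi1* and *Myb* were lower. *Irf8* (chromosome 8, 120736358 to 120756694, plus strand), the factor that turns progenitors to the monocyte and dendritic branch, was at 35.8 CPM (30.5 to 41.6) in the plain progenitors and 435 CPM (415 to 457) in those with monocyte markers, a log2 ratio of 3.61 (3.38 to 3.84). *Klf4* (chromosome 4, 55527143 to 55532466, minus strand), a factor of monocyte differentiation, was at 1.71 CPM (0.740 to 3.38) and 230.4 CPM (215 to 246), or 7.07 (6.09 to 8.29). The plain progenitors thus had almost no *Klf4*, with 8 UMIs in 5 of 90 cells. *Gfi1* stood at 3.95 CPM (2.21 to 6.51) in the cells with monocyte markers, -3.89 (-4.75 to -3.14) against the plain progenitors. *Cebpe* was at 22.9 CPM (18.3 to 28.2) there, or -3.51 (-3.84 to -3.19), and *Myb* at 97.3 CPM (87.7 to 108), or -1.60 (-1.77 to -1.43). *Cebpa* and *Spi1* stood at 67.9 CPM (59.8 to 76.7) and 341 CPM (322 to 359.7), with log2 ratios of 0.38 (0.12 to 0.64) and 0.27 (0.16 to 0.38), both under 2-fold.

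**Figure D2:**
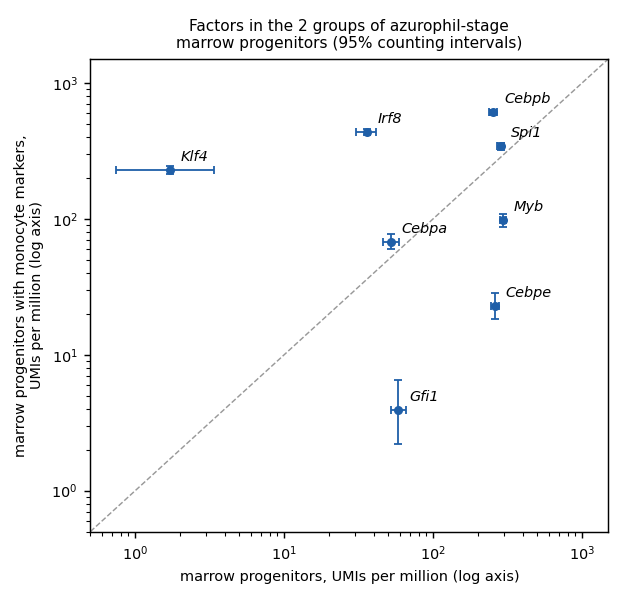
Levels of the 8 factors in marrow progenitors (horizontal axis) and in marrow progenitors with monocyte markers (vertical axis), in CPM on log axes, with exact Poisson 95% intervals. *Cebpa* and *Spi1* lie near the dashed line of equal levels, *Irf8*, *Klf4* and *Cebpb* above it, and *Gfi1*, *Cebpe* and *Myb* below it.

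The *Irf8* UMIs of the plain progenitors sat in few cells. All 167 came from 17 of 90 cells, and 5 cells held 61.1% of them. The median monocyte marker level of those 5 was 17.5 UMIs per 10000, close under the gate of 20, against 9.90 for the whole group, and the part of such cells in the group's *Irf8* level was not tested. With every cell thinned to 5000 UMIs, 2 of 89 progenitors held both *Irf8* and *Gfi1*, 7 held *Irf8* alone and 22 *Gfi1* alone. Among the 68 progenitors with monocyte markers, none held both, 53 held *Irf8* alone and 1 held *Gfi1* alone. *Myb* and *Cebpe* were both held by 40 of 89 plain progenitors, with *Myb* alone in 26 and *Cebpe* alone in 18. In the azurophil-to-specific cells 21 of 110 held both and 88 *Cebpe* alone, and no cell held *Myb* alone. Of the plain progenitors, 10.1% held *Irf8*, 27.0% *Gfi1*, 74.2% *Myb* and 65.2% *Cebpe* at this depth. Whether either pair shared more or fewer cells than these shares alone would give was not tested.

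From the cycling to the immature neutrophils, 3 of 6 members compared were lower and 0 higher, against 27.6% and 7.37% of 9079 features. *Gfi1* was at 5.19 CPM (3.78 to 6.94), a log2 ratio of -2.16 (-2.65 to -1.69), and *Myb* at 11.4 CPM (9.27 to 13.9), or -1.36 (-1.71 to -1.02). *Cebpb* reached its lowest level of the neutrophil groups, 92.5 CPM (86.3 to 99.2), with -1.0 (-1.13 to -0.88). This ratio lay at the 2-fold limit and fell short of it under both other scalings, at -0.70 without the most abundant genes and -0.79 by the median ratio, and at -0.94 with cells weighted equally. *Cebpe* was at 371 CPM (358 to 384), a ratio of -0.95 (-1.01 to -0.89) that lay just inside the 2-fold limit. *Spi1*, at 411 CPM (397 to 425), and *Cebpa*, at 4.84 CPM (3.49 to 6.54), had log2 ratios of 0.19 (0.13 to 0.26) and 0.41 (-0.27 to 1.10). *Cebpe* was still widespread among the immature cells, with a UMI in 353 of 384, whereas *Gfi1* was found in 39.

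The mature neutrophils of the marrow differed from the immature ones by higher *Cebpb* and *Cebpa* and by lower *Cebpe*, *Gfi1* and *Myb*. These are 2 members higher and 3 lower of 6, against 12.5% and 15.4% of 7659 features, with *Irf8* and *Klf4* too scarce to compare. *Cebpb* stood at 620.3 CPM (589 to 653), a log2 ratio of 2.74 (2.62 to 2.87) or 6.70-fold. It was seen in most single cells, whose *Cebpb* level had a median of 67.9 CPM (10th to 90th percentile 0 to 216 CPM) in the immature and 543 CPM (126 to 1230.4 CPM) in the mature group. *Cebpe* was at 33.1 CPM (26.2 to 41.2), or -3.49 (-3.83 to -3.17). The *Cebpe* UMIs were down to 80 in 214 cells. *Gfi1* had no UMI in the mature cells. With 3 UMIs taken for 0 that is 1.24 CPM, 4.18-fold lower than in the immature cells, and the log2 interval reached up to -1.70. *Myb* had 2 UMIs there, and the log2 ratio with its counting interval was -3.79 (-6.85 to -1.89). *Cebpa* came to 10.8 CPM (7.03 to 15.8) from 26 UMIs, a log2 ratio of 1.15 (0.39 to 1.89). *Spi1* was at 643 CPM (611 to 676) with a ratio of 0.65 (0.56 to 0.73), under 2-fold. *Cebpa* is the member whose place among the higher ones was least firm, since it dropped out under stricter gates, gates on thinned cells, either other scaling or a floor of 100 UMIs.

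**Figure D3:**
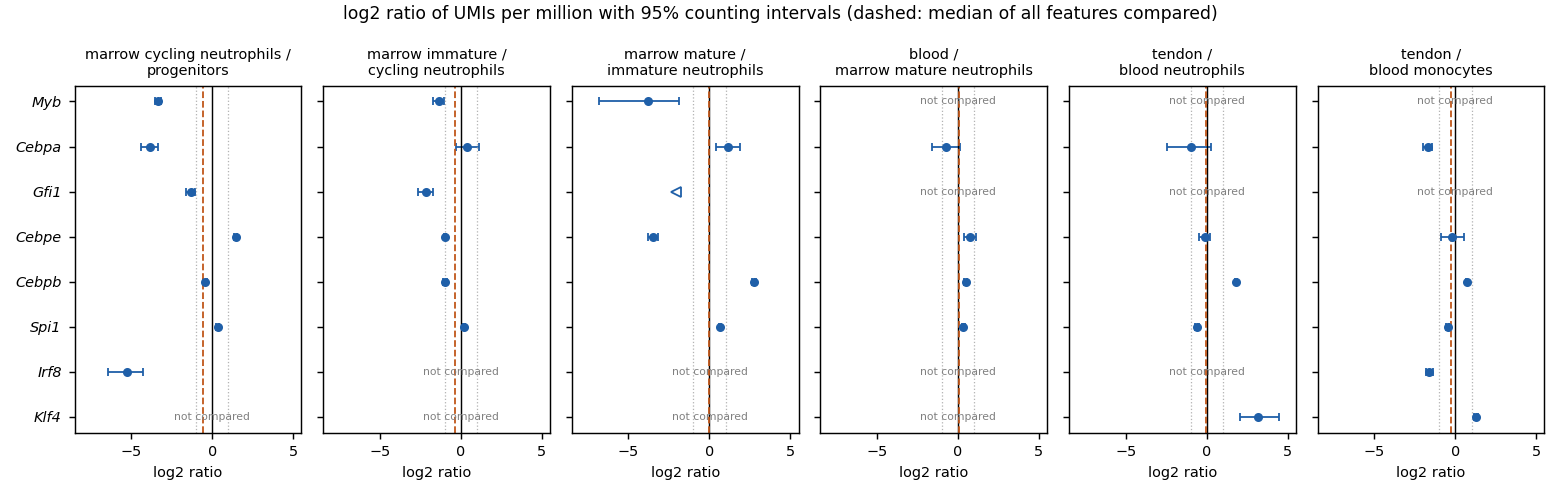
Log2 ratios of the members in 6 comparisons of neutrophil and monocyte groups, with 95% counting intervals; the dashed line is the median over all features compared and the dotted lines mark 2-fold. *Cebpb* is the member furthest to the right from immature to mature neutrophils, and *Klf4* and *Cebpb* are furthest right from blood to tendon neutrophils.

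Between the mature neutrophils of the marrow and the neutrophils of the blood, no member passed 2-fold: 0 of 4 compared were higher and 0 lower, against 6.40% and 1.22% of 6574 features. *Cebpb* was at 857 CPM (828 to 888) in the blood and *Spi1* at 810.0 CPM (781 to 839.6), with log2 ratios of 0.47 (0.38 to 0.56) and 0.33 (0.24 to 0.42). *Cebpa* was at 6.5 CPM (4.16 to 9.67), a ratio of -0.73 (-1.59 to 0.13). *Gfi1*, *Irf8*, *Klf4* and *Myb* had 2, 8, 8 and 5 UMIs in 385 blood neutrophils, too few to compare.

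*Cebpe* was at 55.5 CPM (48.2 to 63.6) in the blood neutrophils, a log2 ratio of 0.75 (0.37 to 1.14) to the mature marrow cells, but 5 of the 385 cells held 65.4% of its 205 UMIs. Sorted by their specific granule markers, the 20 blood cells with at least 300 marker UMIs per 10000 were at 334 CPM (285 to 389) for *Cebpe*, and the 247 cells under 50 were at 11 CPM (6.83 to 16.9). The same 20 cells were low in *Cebpb*, at 322 CPM (274 to 376) against 948 CPM (905 to 993). When the blood cells were held to the gate used for mature marrow cells, a comparison added after the data were seen, 359 cells were left, *Cebpe* was at 11.6 CPM (8.10 to 16.0) and the log2 ratio to marrow turned to -1.52 (-2.13 to -0.93). Raising the minimum marker level of each gate 2-fold, with the limits that keep other cells out unchanged, which left 81 mature marrow cells, moved it the other way, to 1.84. *Cebpb* and *Spi1* kept their direction when held to the mature gate, with 0.62 (0.53 to 0.71) and 0.42 (0.33 to 0.51). In the marrow mature cells, too, *Cebpe* followed the specific granule markers, from 12.9 CPM (4.18 to 30) in the 46 cells under 50 to 67.3 CPM (48.9 to 90.3) in the 46 cells between 150 and 300.

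**Figure D4:**
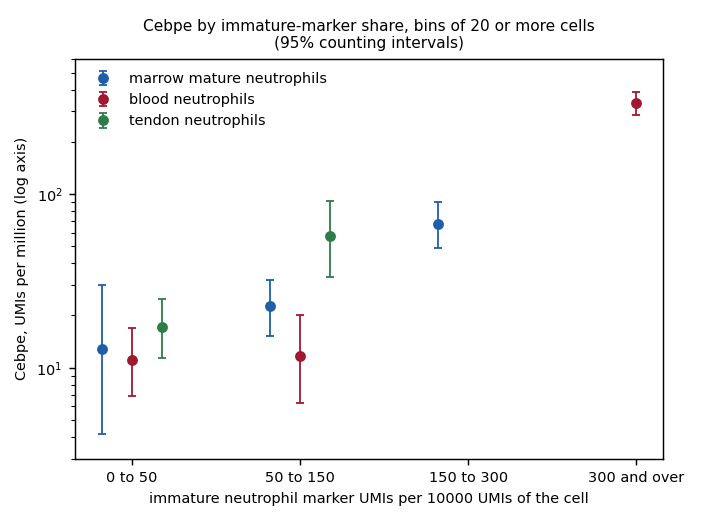
*Cebpe* level in CPM with exact Poisson 95% intervals in mature marrow, blood and tendon neutrophils sorted by their UMIs of 5 specific granule marker genes per 10000 UMIs; bins with under 20 cells are left out. In all 3 tissues the bin richest in these markers has the highest *Cebpe* level, up to 334 CPM in 20 blood cells.

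In the tendon injury site *Cebpb* and *Klf4* were higher than in blood neutrophils. These are 2 of 5 members compared, with 0 lower, against 14.3% and 12.5% of 6812 features. *Cebpb* reached 2943 CPM (2870.2 to 3017), the highest level of all 26 groups with at least 20 cells, against 857 CPM in blood, a log2 ratio of 1.78 (1.72 to 1.84) or 3.43-fold. It was spread over the group, with a UMI in 462 of 466 cells and a single-cell median of 2775 CPM (10th to 90th percentile 1109 to 5668 CPM), against 785 CPM (171 to 1743 CPM) in blood. With cells thinned to 1000 UMIs, 90.3% (87.2 to 92.9) of tendon and 53.9% (48.8 to 59.0) of blood neutrophils had a *Cebpb* UMI, against 2.21% (1.18 to 3.75) of blood T cells, at median depths of 3850, 8561 and 8917 UMIs.

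Transcripts of the marker lists of other cell types were present in the tendon neutrophils, and their part in the *Cebpb* difference was not tested. Tendon neutrophils held the monocyte list at 344 CPM (8 of 8 genes detected), the macrophage list at 199 CPM (8 of 8) and the mesenchymal list at 109 CPM (6 of 6). In blood neutrophils these lists stood at 446 CPM (8 of 8), 107 CPM (6 of 8, *Mrc1* and *Folr2* at 0) and 0 CPM. The monocyte list was at 1073 CPM in the immature and 691 CPM in the mature neutrophils of the marrow. Its tendon value was thus the lowest of the neutrophil groups, while the macrophage and mesenchymal values were higher in tendon than in blood. Restricted, after the data were seen, to the 104 tendon and 55 blood neutrophils without a UMI of any monocyte or macrophage marker, *Cebpb* was at 3124 CPM (2937 to 3319) and 1031 CPM (929 to 1140.3), a log2 ratio of 1.60 (1.43 to 1.77). The median depths of these cells were 3209.5 UMIs in tendon and 6874 UMIs in blood. A cell without a marker UMI at such depth can still hold transcripts of other cells. Mesenchymal and keratinocyte markers were not part of this choice. Held to the mature marrow gate, the *Cebpb* ratio was 1.71 (1.65 to 1.78). Against marrow mature neutrophils the tendon cells were 2.25 (2.16 to 2.33) higher on the log2 scale.

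**Figure D5:**
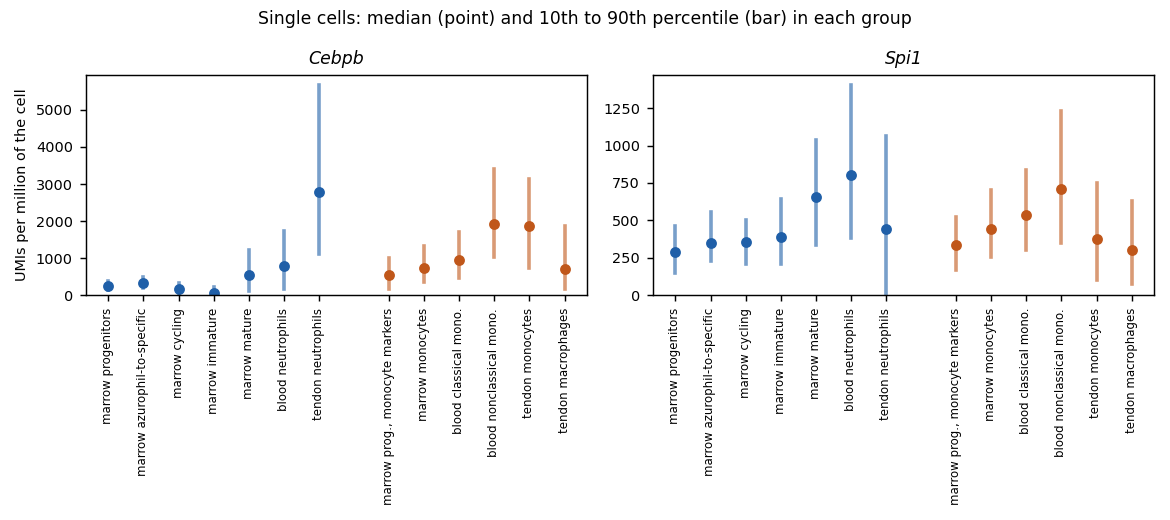
*Cebpb* and *Spi1* per cell in the neutrophil and monocyte groups, in CPM, with the median as a point and the 10th to 90th percentile as a line. The *Cebpb* median is 2775 CPM in the tendon neutrophils, while the *Spi1* median there, 445 CPM, is below the 804 CPM of the blood neutrophils.

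*Klf4* in the tendon neutrophils came to 19.8 CPM (14.2 to 26.7) from 42 UMIs in 24 of 466 cells, against 2.17 CPM (0.935 to 4.27) from 8 UMIs in 4 of 385 blood cells, a log2 ratio of 3.19 (2.08 to 4.49). The signal was narrow: 5 tendon cells held 54.8% of the UMIs, and their median monocyte marker level was 8.79 UMIs per 10000 against 2.06 for the group. In the 104 tendon cells without a monocyte or macrophage marker UMI, *Klf4* was at 15.0 CPM (4.88 to 35.0). That came from 5 UMIs, against 2 in the 55 blood cells, and the ratio of 1.46 (-1.15 to 4.85) had an interval reaching below 0. Tendon macrophages held *Klf4* at 587 CPM, tendon keratinocytes at 418 CPM and tendon mesenchymal cells at 375 CPM. The part of such RNA in the neutrophil value was not tested. Thinned to 1000 UMIs, 2.20% (1.06 to 4.0) of tendon neutrophils held *Klf4* against 41.5% (38.8 to 44.2) of tendon macrophages and 0 of 382 blood neutrophils, which allows up to 0.785%.

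*Spi1* was at 536 CPM (505 to 568) in the tendon neutrophils, -0.60 (-0.70 to -0.50) against blood on the log2 scale, and its per-cell median was 445 CPM against 804 CPM. *Cebpe*, at 50.8 CPM (41.7 to 61.3), had a ratio of -0.13 (-0.48 to 0.22). It became 1.04 (0.37 to 1.72) when both sides were held to the mature gate, and then counted as higher. As in blood, few cells carried it, with 52.8% of its UMIs in 5 of 466 cells. *Cebpa* had 7 UMIs and a ratio of -0.98 (-2.44 to 0.28), which became -1.62 under stricter gates and then counted as lower. *Gfi1*, *Irf8* and *Myb* had 1, 5 and 1 UMIs. The neutrophils of the injury site thus held almost no transcripts of the progenitor factors or of *Irf8*, where 3 UMIs correspond to 1.41 CPM.

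Set against the monocytes of the same tissue, the neutrophils were lower in *Cebpa*, *Irf8* and *Klf4* and higher in *Cebpe* in all 3 tissues. In marrow, mature neutrophils had 4 members lower and 1 higher of 7 compared, against 60.0% and 9.26% of 9724 features, the fourth being *Myb*. In blood 3 were lower and 1 higher of 6, against 54.2% and 9.92% of 9365 features, and in the tendon 3 and 1 of 6, against 47.1% and 10.9% of 8886 features. Lower levels in neutrophils were thus common among all features, whose medians were -1.55, -1.21 and -0.99 on the log2 scale, and the count of lower members was near that background. Of the marrow monocytes, 52.5% were over the cycling threshold, against 0% of the mature marrow neutrophils, so stage as well as cell type differs in that comparison. *Myb* was found in 26 of the 284 marrow monocytes, and 5 cells held 43.9% of its UMIs.

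*Irf8* and *Klf4* showed the widest gaps. The marrow monocytes held 262 CPM (250.2 to 274), the blood monocytes 141 CPM (131 to 151) and the tendon monocytes 46 CPM (40.5 to 52.0). The neutrophils held 1, 8 and 5 UMIs, and the log2 ratios were -9.30 (-14.61 to -6.83), -6.02 (-7.24 to -5.04) and -4.29 (-5.92 to -3.05). *Klf4* had no UMI in 214 mature marrow neutrophils. With 3 UMIs taken for 0 it lay 192-fold below the 238 CPM (227 to 249.5) of marrow monocytes, and the log2 interval reached up to -7.28. In blood and tendon its log2 ratios were -6.13 (-7.34 to -5.14) and -4.23 (-4.71 to -3.79). *Cebpa* had ratios of -2.63 (-3.26 to -2.06), -3.70 (-4.35 to -3.11) and -2.96 (-4.30 to -1.88). Monocytes held it at 66.5 CPM in marrow and 84.2 CPM in blood. *Cebpe* had ratios of 1.33 (0.88 to 1.77), 2.99 (2.50 to 3.51) and 3.04 (2.47 to 3.64), and in marrow its place above 2-fold was lost under stricter gates and under gates on thinned cells.

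*Cebpb* did not keep its direction. It was -0.34 (-0.43 to -0.26) in marrow and -0.47 (-0.53 to -0.41) in blood on the log2 scale, and 0.61 (0.56 to 0.65) in the tendon, where monocytes held 1932 CPM (1895 to 1969). None of these passed 2-fold, and the difference between tissues was not tested. When the most abundant genes were left out of the totals, all 3 were positive, the marrow ratio going to 0.59, so the sign depends on the scaling. *Spi1* was slightly higher in the neutrophils of every tissue, with 0.55 (0.46 to 0.64), 0.45 (0.38 to 0.52) and 0.33 (0.23 to 0.44). Without the most abundant genes in the totals, *Spi1* reached 1.48 in marrow and 1.20 in blood, and *Cebpb* 1.12 in the tendon.

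The monocytes of the tendon compared with those of the blood had 1 member higher and 2 lower of 6, against 9.69% and 17.3% of 9820 features. *Klf4* was the higher one, at 371 CPM (355 to 388) against 151 CPM (142 to 162), or 1.30 (1.18 to 1.41). *Irf8* and *Cebpa* were lower, with -1.61 (-1.82 to -1.41) and -1.72 (-2.0 to -1.44). *Cebpb* was 0.70 (0.66 to 0.75), in the same direction as in the neutrophils but under 2-fold, and *Spi1* -0.48 (-0.55 to -0.40). The blood side pooled both monocyte kinds, and these differed from each other: nonclassical cells held 2033 CPM (1939 to 2131) of *Cebpb* against 1041 CPM (1013 to 1070.1) in classical cells. Their *Klf4* was 448 CPM against 101 CPM, a log2 ratio of 2.16 (1.96 to 2.35), and their *Cebpa* 29.2 CPM against 93.6 CPM, or -1.68 (-2.32 to -1.10). *Irf8* did not differ beyond counting error, with -0.09 (-0.39 to 0.19). Against the classical cells alone, the tendon monocytes had log2 ratios of 1.88 (1.74 to 2.03) for *Klf4*, 0.89 (0.84 to 0.94) for *Cebpb*, -1.63 (-1.84 to -1.42) for *Irf8* and -1.87 (-2.15 to -1.59) for *Cebpa*. Tendon macrophages had 2 of 6 members higher and 2 lower than tendon monocytes, against 19.3% and 5.42% of 11309 features. *Cebpa* and *Irf8* were higher, with 1.92 (1.67 to 2.18) and 1.66 (1.47 to 1.85). *Cebpb* was lower, with -1.17 (-1.21 to -1.13), and so was *Cebpe*, with -2.14 (-2.92 to -1.37) from 27 and 34 UMIs.

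Several factors were also found in cells outside these groups. *Irf8* was highest in marrow dendritic cells, at 2725 CPM (2599.8 to 2855), and next in blood NK cells, at 521 CPM (472 to 574). *Myb* was highest in marrow B cells, at 358 CPM (306 to 415), whose interval overlapped that of the progenitors. *Gfi1* was found in blood NK cells at 18.8 CPM (10.5 to 31.1), next in order after the 3 earliest neutrophil groups. *Cebpa* was highest in 28 blood basophils or mast cells, at 497 CPM (403 to 607). *Klf4* was also high in cells of the tendon that are not myeloid, where keratinocytes held 418 CPM (403 to 433) and mesenchymal cells 375 CPM (368 to 383). *Cebpe* had 0 UMIs in 590 blood T cells, 325 blood B cells and 277 tendon endothelial cells. *Spi1* was at 74.2 CPM (62.8 to 87.1) in blood B cells, 1.11 CPM (0.406 to 2.41) in blood T cells and 0 UMIs in 120 NK cells. For *Cebpb*, tendon neutrophils led, blood nonclassical monocytes (1939 to 2131 CPM) and tendon monocytes (1895 to 1969 CPM) followed with overlapping intervals, and blood B, NK and T cells stood at 20.9, 12.6 and 10.7 CPM.

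Other factors of the same programs were read from lists of known roles. Of 12 stem and progenitor factors, 9 could be compared between cycling neutrophils and progenitors, and 6 were lower and 2 higher, against 38.0% and 11.3% of all features. *Myc*, a driver of growth, went from 56.3 to 0.625 CPM (log2 ratio -6.49, -7.95 to -5.35) and *Hoxa9*, a homeobox factor of progenitors, had -5.92 (-9.0 to -4.01). *Erg* and *Ikzf1* were the higher ones, with 1.13 and 1.47. The median of the 9 was -1.91 against -0.59 over all features.

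Of 18 late neutrophil and inflammatory factors, 17 could be compared between mature and immature marrow neutrophils, and 10 were higher and 0 lower, against 12.5% and 15.4% of all features, with a median of 1.10 against -0.04. *Junb*, an AP-1 subunit, had 2.93 (2.75 to 3.11) and *Hif1a*, the oxygen-regulated factor, 2.39 (2.11 to 2.67). Of the same 18, 8 were higher and 0 lower in tendon against blood neutrophils, beside 14.3% and 12.5% of all features, with a median of 0.98 against -0.07. *Atf3*, a stress-induced factor, went from 6.23 to 127 CPM (log2 ratio 4.35, 3.73 to 5.03), *Junb* from 649 to 1958 CPM (log2 ratio 1.59, 1.52 to 1.67) and *Rel*, an NF-κB subunit, had 2.40 (2.13 to 2.67). In tendon against blood monocytes 12 of 18 were higher and 2 lower, beside 9.69% and 17.3% of all features, with a median of 1.23 against -0.25.

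A further list held other C/EBP proteins and their modifiers, and also genes outside that family, such as *Cebpz* and *Nfe2*. Of 7 compared between tendon and blood neutrophils, 4 were higher, *Cebpz* among them, and 2 lower, *Nfe2* among them. The median was 1.36, against 14.3% and 12.5% of all features and their median of -0.07. *Trib1*, which targets C/EBP proteins for degradation, was at 484 against 62.0 CPM (log2 ratio 2.97, 2.76 to 3.18), *Atf4* had 2.75 (2.42 to 3.10) and *Ddit3*, which encodes the stress factor CHOP, 1.36 (1.04 to 1.68). *Cebpg*, a C/EBP protein that lacks a strong activation domain, was lower with -1.27 (-1.78 to -0.79), and *Nfe2* with -1.31 (-1.63 to -1.0). In tendon against blood monocytes *Trib1* and *Atf4* were likewise higher, with 2.34 (2.06 to 2.63) and 2.46 (2.27 to 2.65), and *Cebpg* and *Nfe2* lower, with -1.59 (-1.83 to -1.35) and -3.23 (-3.83 to -2.69).

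Of 13 monocyte and dendritic factors, 10 were compared between tendon and blood neutrophils, and 7 were higher and 0 lower, with a median of 2.09, against the same shares and median of all features. *Egr1*, an immediate early factor, had 4.67 (4.26 to 5.10) and *Zeb2* 2.73 (2.51 to 2.94). The monocyte list value of the tendon neutrophils, given above, was the lowest of the neutrophil groups, but the gate itself limits that list. Their macrophage, mesenchymal and keratinocyte list values were higher than those of the blood neutrophils. The part of transcripts from other cells in these values was not tested. A list of 8 receptor genes held those of colony-stimulating factors together with *Il6ra*, *Kit* and *Flt3*. Of 7 compared, 6 were higher and 0 lower in mature than immature marrow neutrophils, with a median of 1.32. All features had 12.5% and 15.4% and a median of -0.04. The higher ones were *Csf3r*, *Csf1r*, *Csf2rb*, *Csf2rb2*, *Il6ra* and *Kit*. Between tendon and blood neutrophils 0 of 7 were higher and 0 lower, with a median of 0.04, against 14.3% and 12.5% of all features and their median of -0.07. Of the 8 receptor genes, *Csf3r*, the receptor for granulocyte colony-stimulating factor, and *Csf1r* were themselves gate markers.

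Across the 26 groups, the genes most alike to each factor were ranked among 13302 genes by Pearson's r of log2(CPM + 1). These groups share libraries and depth, and r is a description only. *Cebpe* was closest to *Abca13* (r = 0.957) and *Gca* (0.94). *Nfam1* (0.935) was among the genes most like *Spi1*. *Klf4* was closest to *Plxnb2* (0.937) and *Myb* to *1700097N02Rik* (0.901). *Cebpb* was closest to *Rab31* (0.877), *Lamp2* (0.863) and *Slc16a3* (0.861), the last of them a lactate transporter gene with its highest level, 785 CPM, in the tendon neutrophils. For *Cebpa*, *Gfi1* and *Irf8* the closest were *Idh1* (0.863), *Nkg7* (0.855) and *Gm44067* (0.856). Among the factors themselves, *Gfi1* and *Myb* were most alike (0.719) and *Gfi1* and *Klf4* least (-0.715).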

How the data were processed

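Single-cell RNA libraries were made from the marrow, the blood and the injury site, 1 each. The files the authors deposited hold raw UMI counts for every gene in every cell. Their headers name Cell Ranger 5.0.1, the submitters' processing notes name mm10, and no source used here names the annotation release. The counts are not normalized. Gene positions were taken from GENCODE M21 by Ensembl identifier.

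Cells with under 200 detected genes or over 20.0% mitochondrial UMIs were removed (15, 57 and 651 of 1855, 2241 and 5629 cells in marrow, blood and tendon). Scrublet in scanpy 1.11.5 ranked doublets, and the top scores were removed at 0.8% per 1000 cells (27, 38 and 198 cells). The remaining cells were gated on UMIs of marker lists per 10000 UMIs of the cell: at least 500 for neutrophils, 50 for azurophil genes, 20 for monocytes and 100 for macrophages. A cell passing gates of several lineages was left out, with exceptions. Azurophil-stage marrow cells could also pass the neutrophil gate, and those low in specific granule genes that passed the monocyte gate formed their own group. Macrophages and dendritic cells could also pass the monocyte gate, while monocytes had under 50 macrophage UMIs. The tendon macrophages had a median of 24.6 monocyte marker UMIs per 10000, so many of them also passed the monocyte gate. Cycling cells had at least 5, immature cells at least 500 specific granule UMIs with under 2 of cycling and under 20 of mature markers, and mature cells at least 30 mature and under 300 specific granule UMIs. The thresholds were set after the marker distributions were seen. Groups with under 20 cells were left out.

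UMIs were summed per group and compared as log2 ratios with exact binomial 95% intervals, over features with at least 20 UMIs in both groups together. With 1 library per tissue no test across samples exists, and no p-value is given. Shares of cells used cells thinned to 1000 UMIs with exact Clopper-Pearson intervals, and pairs of genes used 5000 UMIs. A count of 0 was taken to allow 3. The interval method was tested on simulated independent counts only. These have no clustering of UMIs in few cells, so the test cannot show how the intervals do where UMIs cluster. Alternatives were stricter cell filters, no doublet removal, gates raised 2-fold, gates on cells thinned to 2000 UMIs, totals without the 18 genes that held over 1% of a group, size factors from the median ratio over 3132 genes, cells weighted equally, at least 100 UMIs and thinning to 2000 UMIs.

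The factors, and the 7 lists with their 73 other genes, were chosen with earlier results of these data known. The text names the factors, the 3 genes most alike to each among those with at least 100 UMIs, and list members. Python 3.11.15, numpy 2.4.6, scipy 1.17.1, pandas 2.3.3 and matplotlib 3.10.9 were used. Some genes that the naming rule gives are not reported here.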

Additional observations from a re-analysis of the deposited data

Results flagged for a closer look

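*Cebpb* was lower in neutrophils than in monocytes in 2 tissues and higher in the third. Its log2 ratio of neutrophils to monocytes was -0.34 in marrow, -0.47 in blood and 0.61 in the tendon. The opposite direction was what drew attention, and the difference between tissues was not tested, since each tissue had 1 library. Under both other scalings the marrow and blood ratios were positive as well.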

How the results depend on the processing

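No paired analysis was possible because each tissue had 1 library and no result comes from a test across samples. Across the other settings tried, 126 of the recomputed counts of members stayed within 1.5 times and 18 did not. The counts below stand without the share of all features called under the same setting, so no result about the members is drawn from them. Leaving the most abundant genes out of the totals gave 2 members higher from progenitors to cycling cells, 1 from immature to mature, and 2 in neutrophils against monocytes of marrow, blood and tendon each. Size factors from the median ratio gave 1 for immature to mature and 2 for each of those 3 tissues. Stricter gates and gates on thinned cells gave 1 higher from immature to mature, 1 from marrow mature to blood, and 0 in marrow neutrophils against monocytes, and stricter gates gave 1 lower from blood to tendon neutrophils. Stricter gates left 81 of 214 mature marrow cells, and the bounds that a count of 0 allows there went to -0.69 for *Gfi1* against immature cells and -0.15 for *Myb* against monocytes. A minimum of 100 UMIs gave 1 higher from immature to mature and 1 from blood to tendon neutrophils. Of the comparisons added after the data were seen, holding neutrophils to the mature gate gave 1 lower from marrow to blood. There *Cebpe* also counted as higher from blood to tendon neutrophils, beside *Cebpb* and *Klf4*. Leaving out cells with monocyte or macrophage marker UMIs gave 1 higher from blood to tendon. With cells weighted equally, *Elane* went to -0.11 for blood against marrow mature neutrophils and *Ltf* to -0.92 for marrow neutrophils against monocytes. Both counted as higher in the main setting, so their direction was reversed. The cause was not tested in any of these.

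Of the member ratios, 321 values moved by less than their interval and 95 by more. Of the 321, 45 came from the minimum of 100 UMIs, which changes only which features are compared and cannot move a ratio. The sign turned under at least 1 other setting for *Cebpb* from progenitors to cycling cells (-0.55 to 0.41) and in neutrophils against monocytes of marrow (-0.36 to 0.59) and blood (-0.53 to 0.28), and for *Cebpe* from marrow mature to blood (-0.33 to 1.84), from blood to tendon neutrophils (-0.37 to 0.08) and from blood to tendon monocytes (-0.65 to 0.02). These counts and ranges leave out the comparisons added after the data were seen. Held to the mature gate, *Cebpe* had a log2 ratio of -1.52 from marrow mature to blood and 1.04 from blood to tendon neutrophils. The tendon *Cebpb* ratio to blood neutrophils kept its direction, from 1.54 to 1.88. Totals without abundant genes moved the median of all features by up to 0.93, in marrow neutrophils against monocytes, and size factors by up to 0.75. Depth limits the scarce factors: 3 UMIs correspond to 1.24 CPM in mature marrow neutrophils and 1.41 CPM in tendon neutrophils.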
